A study of Mus musculus with 5 samples.

Results

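Imprinted genes are expressed mainly from the copy inherited from 1 parent, and 34 of them, lying in 14 clusters of the mouse genome, were examined for acetylation of histone H3 at lysine 9 (H3K9ac), a mark of active promoters. Peaks of H3K9ac were assigned to a gene when their centre lay within 10 kb of any of its annotated transcript starts. The annotation held 33 of the 34 genes, and 40 of the 34286 peaks of DOP-treated cells and 41 of the 33355 peaks of untreated cells lay near them. The Kcnq1ot1 transcript was the gene without an annotated start and is described separately. The lists of genes were chosen with earlier results of these data known, but the rule used no measured value.

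Chromatin was immunoprecipitated from STHdh Q111 cells, conditionally immortalized striatal progenitors of the mouse that are homozygous for mutant huntingtin (genotype STHdhQ111/Q111, strain C57BL/6) and are used as a cell model of Huntington's disease. Both conditions were deprived of serum, and the medium held either 4 mM 4-deoxypyridoxine hydrochloride (DOP), an inhibitor of sphingosine-1-phosphate lyase, for 24 h or vehicle (DPBS). Each condition had 2 H3K9ac samples, and 1 IgG sample of Q111 cells was the negative control. The comparison asks where H3K9ac was found with and without the inhibitor, since the study examines this mark after inhibition of the lyase.

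The deposited files gave 1 peak list per condition, so that no error between replicates could be computed and no test was run. Each peak was a 200 bp interval with a score of the authors whose definition is not given in the sources used here. Scores were therefore used only as ranks, as the percentage of peaks of the same list with an equal or lower score (score percentile). The depth behind each peak is unknown. In a bulk sample, a mark carried by fewer cells cannot be told apart from less mark per cell, and the peaks cannot be assigned to the maternal or the paternal copy. As a check of the cell label, the progenitor marker Vim had 3 DOP-treated and 4 untreated peaks, whereas the progenitor markers Nes, Sox2 and Pax6 had none in either list. Of 5 markers of mature striatal neurons, Ppp1r1b had 4 peaks in each list, and Drd1a, Drd2, Adora2a and Penk had none.

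Imprinted clusters are controlled by short regions whose DNA is methylated in either the egg or the sperm, and this methylation persists through development. The unmethylated copy of such a region often serves as a promoter or, at H19, as a binding site for the insulator protein CTCF. The methylated copy is kept methylated in the embryo by the zinc finger protein ZFP57, which binds the methylated hexamer TGCCGC and recruits TRIM28. Many of these genes regulate fetal growth, placental function or behaviour.

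A few peak sequences are printed here because the comparison of the lists turns on them, with each occurrence of the hexamer TGCCGC on either strand in capitals. Sequences are from NCBIM37 (mm9), given 5′ to 3′ on the strand of the gene, and parts in annotated untranslated regions were left out. The first 6 are peaks for which the other list placed no centre within 2 kb. They were chosen after their values were seen. A further peak of this kind counted for Nnat is not printed, since its nearest annotated start belonged to another gene, Gm14286. They are the DOP-only peaks at exon 1A of Gnas (chr2:174152990-174153189, plus strand) and at Mest (chr6:30688336-30688407, plus strand), and the untreated-only peaks at Plagl1 (chr10:12810831-12810961, plus strand), Snrpn (chr7:67149510-67149709, minus strand), Zrsr1 (chr11:22873297-22873496, plus strand) and upstream of H19 (chr7:149766171-149766370, minus strand). The hexamer occurred 2 times each at Plagl1, Snrpn and H19, 1 time each at Zrsr1 and in the printed part at Mest, and 0 times at exon 1A of Gnas.
Gnas exon 1A, DOP only: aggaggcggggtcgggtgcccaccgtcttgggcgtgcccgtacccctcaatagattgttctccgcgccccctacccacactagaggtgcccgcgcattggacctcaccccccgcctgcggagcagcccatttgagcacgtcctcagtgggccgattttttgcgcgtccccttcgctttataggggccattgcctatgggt
Mest, DOP only: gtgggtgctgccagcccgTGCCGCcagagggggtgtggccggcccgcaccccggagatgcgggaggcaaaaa
Plagl1, untreated only: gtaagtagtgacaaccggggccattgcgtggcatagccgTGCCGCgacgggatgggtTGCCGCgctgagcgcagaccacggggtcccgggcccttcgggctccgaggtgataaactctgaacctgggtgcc
Snrpn, untreated only: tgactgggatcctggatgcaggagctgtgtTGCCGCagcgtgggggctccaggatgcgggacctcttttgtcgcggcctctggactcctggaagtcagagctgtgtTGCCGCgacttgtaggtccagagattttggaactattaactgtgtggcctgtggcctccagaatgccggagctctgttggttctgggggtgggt
Zrsr1, untreated only: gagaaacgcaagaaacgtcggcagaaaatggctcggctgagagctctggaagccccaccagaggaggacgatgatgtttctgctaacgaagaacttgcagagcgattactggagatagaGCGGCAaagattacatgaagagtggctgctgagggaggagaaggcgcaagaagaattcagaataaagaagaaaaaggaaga
H19 upstream, untreated only: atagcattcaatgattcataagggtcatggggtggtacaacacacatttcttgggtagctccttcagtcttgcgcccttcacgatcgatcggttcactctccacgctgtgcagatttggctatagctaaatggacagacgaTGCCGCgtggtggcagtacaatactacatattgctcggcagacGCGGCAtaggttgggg

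The next sequences show peaks that had a neighbour in the other list. The whole interval with the highest score outside untranslated regions was a shared peak of the DOP-treated list at Cd81 (chr7:150238908-150239107, plus strand). The highest-ranking peaks without an overlap in the other list were a DOP-treated peak upstream of Ube3a (chr7:66483640-66483839, plus strand) and an untreated peak at Cd81 (chr7:150239418-150239617, plus strand). The nearest annotated start to this untreated peak, 65 bp away, belonged to the lincRNA R74862. The shared peak at the start of the Airn transcript (DOP-treated interval, chr17:12934466-12934665, plus strand) held the hexamer 2 times within its last bases. The DOP-treated peak closest to the start of Kcnq1ot1 (chr7:150482127-150482326, printed on the plus strand, opposite to the transcript) held none.
Cd81, shared: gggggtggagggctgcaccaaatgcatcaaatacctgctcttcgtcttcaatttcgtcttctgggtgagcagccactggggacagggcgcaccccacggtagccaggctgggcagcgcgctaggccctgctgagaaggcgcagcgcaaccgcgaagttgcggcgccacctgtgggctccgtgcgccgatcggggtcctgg
Ube3a upstream, DOP only: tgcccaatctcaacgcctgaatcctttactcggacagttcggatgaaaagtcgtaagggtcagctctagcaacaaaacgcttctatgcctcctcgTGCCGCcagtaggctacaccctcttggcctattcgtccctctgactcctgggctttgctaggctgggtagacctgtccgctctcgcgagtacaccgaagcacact
Cd81, untreated only: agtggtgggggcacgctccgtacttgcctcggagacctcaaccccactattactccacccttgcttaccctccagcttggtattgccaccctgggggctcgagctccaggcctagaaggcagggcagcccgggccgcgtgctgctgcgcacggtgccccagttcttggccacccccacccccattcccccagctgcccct
Airn, shared: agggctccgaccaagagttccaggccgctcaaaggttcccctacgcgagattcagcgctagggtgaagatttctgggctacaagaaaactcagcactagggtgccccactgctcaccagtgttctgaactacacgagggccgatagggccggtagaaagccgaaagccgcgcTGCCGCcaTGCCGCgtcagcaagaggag
Kcnq1ot1, DOP only: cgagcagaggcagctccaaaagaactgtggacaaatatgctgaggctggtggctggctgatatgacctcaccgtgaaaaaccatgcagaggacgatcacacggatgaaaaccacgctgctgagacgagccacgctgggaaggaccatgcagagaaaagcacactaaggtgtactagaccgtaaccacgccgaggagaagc

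Of the 33 annotated imprinted genes, 17 (51.5%) carried a DOP-treated peak and 19 (57.6%) an untreated peak. The 95% Wilson intervals, which describe counting error and nothing else, ran from 35.2% to 67.5% and from 40.8% to 72.8%. Over all 37310 annotated genes the shares were 44.1% and 43.4%. Among the 29 protein-coding imprinted genes, 16 and 17 had a peak, against 57.7% and 56.9% of all protein-coding genes. The imprinted genes as a set were therefore near the background in both lists.

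Peaks of both lists lay near 16 imprinted genes, and 13 genes had none in either list. Mest was the gene marked by DOP-treated peaks alone. H19, Snrpn and Plagl1 were marked by untreated peaks alone. Among protein-coding genes, 1 of 29 imprinted genes had DOP-treated peaks alone and 2 of 29 untreated peaks alone, where all protein-coding genes gave 2.39% and 1.62%. The genes without a peak had none nearby either, since the closest peak to any of the 13 was a DOP-treated one 34334 bp from a start of Dlk1, so no gene lay just outside the 10 kb limit.

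Counted per gene, 5 of the 33 imprinted genes (Ube3a, Mest, Nnat, Gnas and Impact) had a higher number of DOP-treated than untreated peaks, 9 of the 33 had a lower number and 6 had equal numbers above 0. The 9 were H19, Snrpn, Plagl1, Copg2, Igf2r, Peg10, Sgce, Zrsr1 and Commd1. Of these, Peg10 and Sgce were counted on the same peaks, and Zrsr1 and Commd1 shared the untreated peak at Zrsr1. The H19 peak had a score percentile of 0.351. Among peaks in the top 50% of each list by score the order turned, with 5 genes higher and 4 lower in the DOP-treated list, and 14 genes with a DOP-treated against 12 with an untreated peak. The difference between 14 and 12 was made by Peg10 and Sgce alone, which are also among the 5 higher genes. They share 1 DOP-treated peak at 62.7, where the untreated list reached 38.9. Over all genes, 15% had more DOP-treated peaks and 13% had fewer. Of the 16 imprinted genes with peaks in both lists, the highest score percentile was at least 20 points higher in the DOP-treated list at Peg10 and Sgce, which share their peaks, and at least 20 points lower at 0 genes. Among all 15542 genes with peaks in both lists, 3.13% were higher and 1.6% were lower by this limit.

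**Figure D1:**
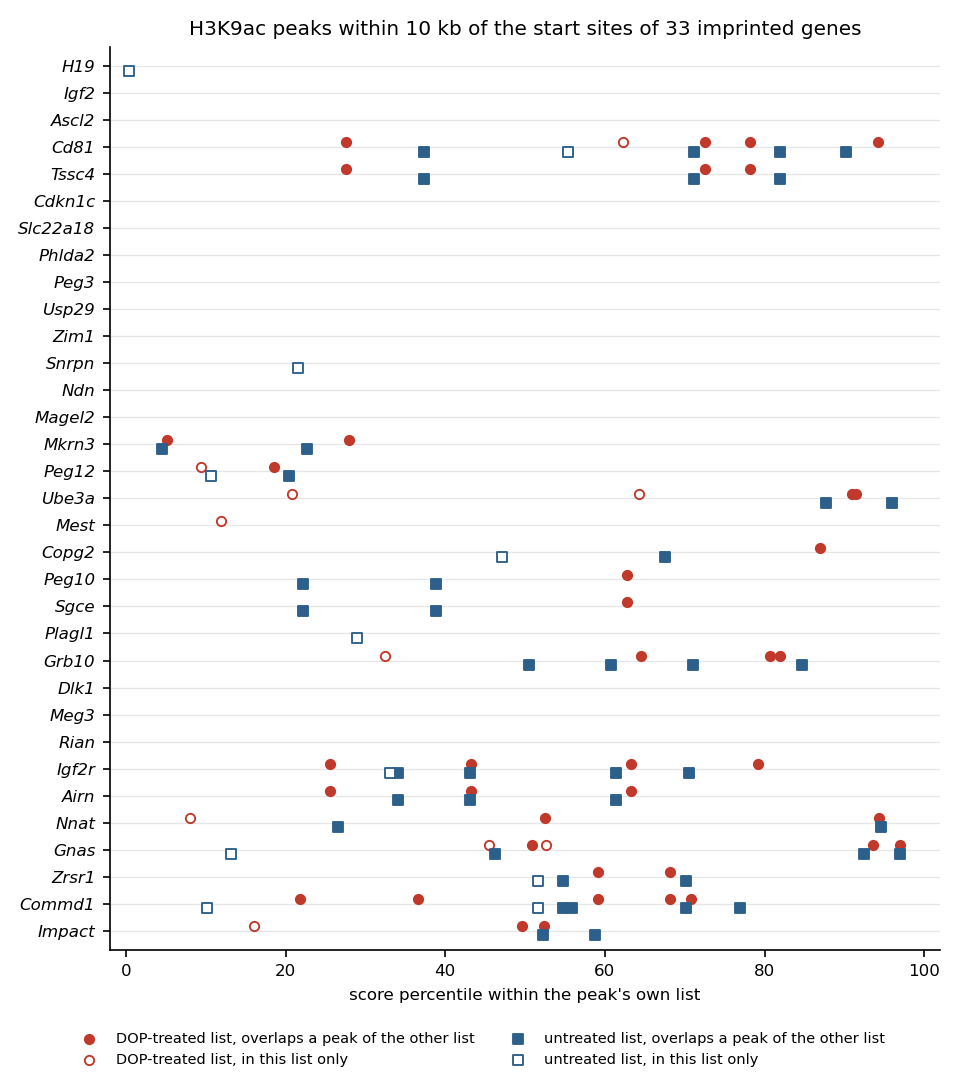
Score percentile (horizontal axis, percent of the peak's own list) of each H3K9ac peak within 10 kb of the starts of the 33 annotated imprinted genes (vertical axis, grouped by cluster), with red circles for the DOP-treated list and blue squares for the untreated list. Open symbols mark peaks that overlap no peak of the other list, and 13 genes have no symbol.

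At the peak level, 10 of the 40 DOP-treated peaks overlapped no untreated peak, or 25% (95% Wilson interval 14.2% to 40.2%), against 20% of all DOP-treated peaks. Of the 41 untreated peaks, 10 overlapped no DOP-treated peak, or 24.4% (13.8% to 39.3%), against 16.7% of all untreated peaks. Most of these peaks lay beside a peak of the other list. The other list had its nearest centre over 2 kb away for 3 DOP-treated peaks (7.5%) and 4 untreated peaks (9.76%), where the shares over all peaks were 9.16% and 7.05%. These 7 peaks are called isolated in what follows. The median score percentile was 55.9 for DOP-treated peaks of imprinted genes (range 5.10 to 97.0) and 52.3 for untreated peaks (range 0.351 to 97.0).

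The imprinted genes held 87 separate promoters when starts within 500 bp were chained, and 19 genes had more than 1. A peak of both lists lay within 1 kb of 15 promoters, a DOP-treated peak alone at 2, an untreated peak alone at 5 and none at 65. A peak can count for more than 1 promoter, so the 5 rest on fewer peaks. The Plagl1 peak counted for promoters 1 and 2 of that gene, and the Zrsr1 peak for Zrsr1 and a promoter of Commd1. Most of these promoters thus had no peak, but the share over the promoters of all genes was not computed. Peak centres lay mostly just inside the transcript, with 26 of 40 DOP-treated and 28 of 41 untreated centres between 0 and 1 kb downstream of a start. No share over the peaks of all genes was set beside these positions, so they are not shown to be particular to imprinted genes. The nearest annotated start belonged to a gene outside the list for 8 DOP-treated and 9 untreated peaks. These neighbours were Blcap, Cct4, Gm14286, Nespas and the lincRNA R74862, whose peaks are described with Cd81.

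In the Gnas cluster, the locus of the stimulatory G protein alpha subunit, several promoters differ in which parental copy they use. The main promoter of the alpha subunit carried the highest-ranking peaks of all imprinted genes, with a score percentile of 97.0 in each list (101 bp downstream of a start in DOP-treated and 115 bp in untreated cells). Its second shared peak, 387 bp and 373 bp downstream, was at 93.6 in the DOP-treated and 92.5 in the untreated list. Both lists thus placed their strongest peaks of the locus at this promoter.

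The promoter of exon 1A, which is known to be methylated on the maternal copy, differed between the lists. It had a DOP-treated peak 18 bp downstream of a start at a score percentile of 45.5, and the nearest untreated centre was 2814 bp away. Isolated peaks of such a rank were uncommon, as 44 of the 3427 DOP-treated peaks between the percentiles 40 and 50 were isolated (1.28%). This peak, like the isolated ones below, was named because it was isolated, so such shares are descriptions only. A further DOP-treated peak, 937 bp into the main transcript at 52.6, overlapped no untreated peak but lay 564 bp from one. Near the antisense transcript Nespas, both lists had a peak 1 bp apart, at 50.8 in the DOP-treated and 46.3 in the untreated list, and the untreated list had a weaker one at 13.2.

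**Figure D2:**
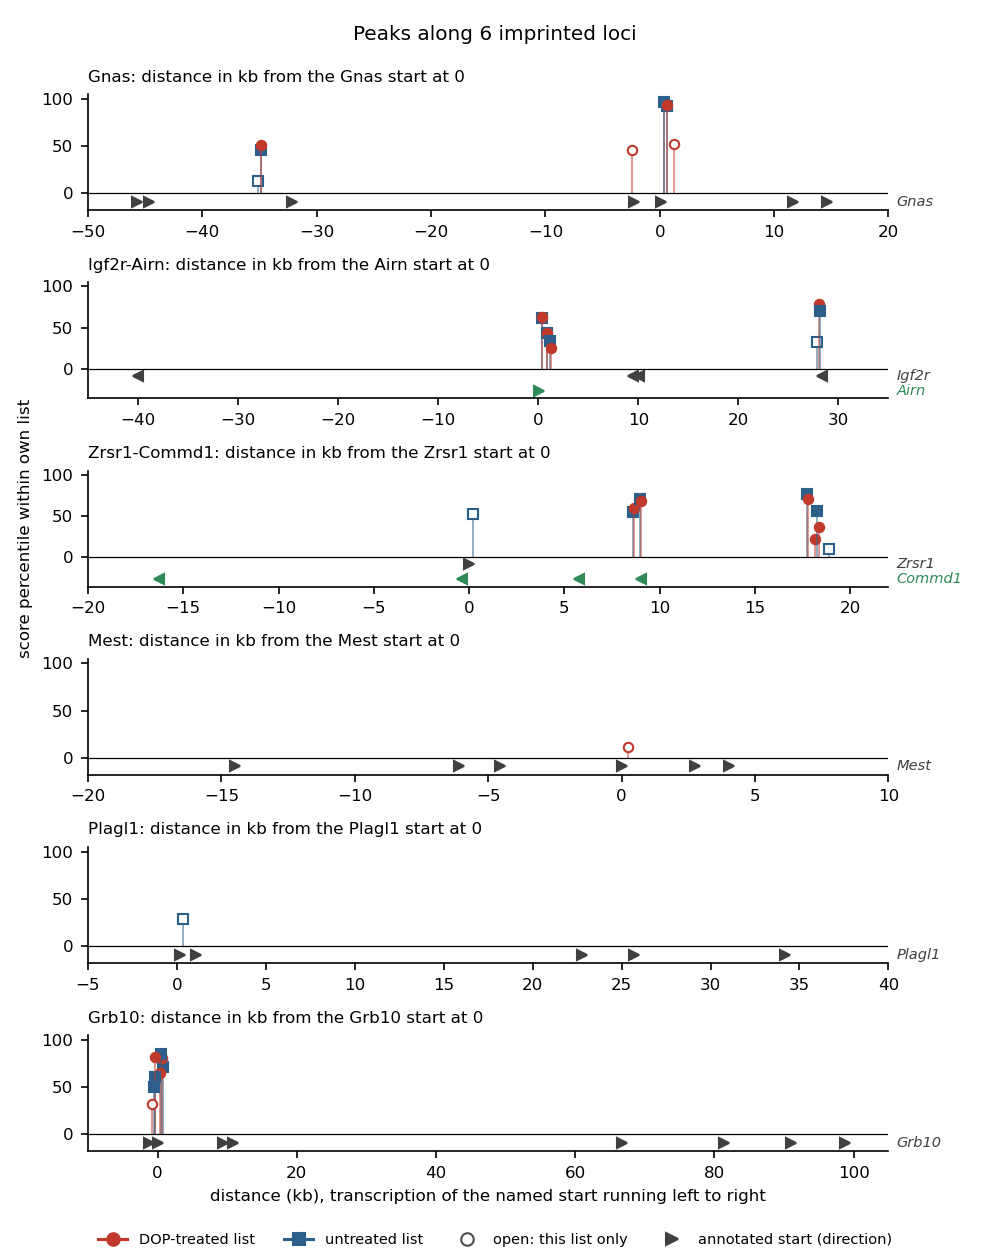
Peaks along 6 imprinted loci, with the distance from a named transcript start in kb on the horizontal axis and the score percentile within the peak's own list on the vertical axis (red circles, DOP-treated list, and blue squares, untreated list, with open symbols for peaks that overlap none of the other list). Arrowheads under the line are annotated starts. The open circle to the left of 0 at Gnas and the open square at 0 at Zrsr1 are isolated peaks described in the text. So are the open symbols at Mest and Plagl1.

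The neighbours Zrsr1 and Commd1 share a locus, in which Zrsr1, a gene for a splicing factor related to U2AF, is transcribed from the paternal copy within an intron of Commd1, a regulator of copper handling and NF-kappaB. The untreated list had a peak 181 bp downstream of the Zrsr1 start, in its coding exon, at a score percentile of 51.7. The nearest DOP-treated centre was 8456 bp away. Among the 3336 untreated peaks between the percentiles 50 and 60, 26 were isolated (0.779%). The promoter of Commd1 carried 2 peaks in each list, with the higher at 68.1 in DOP-treated and 70.1 in untreated cells, so the host promoter was marked in both. A further 3 peaks of each list counted for Commd1 lay closest to Cct4, a subunit of the TRiC chaperonin, and reached 70.8 and 77.0. The outermost, an untreated peak at 10.2, lay at -9738 bp from the Commd1 start, upstream of it and just inside the 10 kb limit.

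Plagl1 encodes a zinc finger protein of the cell cycle and growth, and its promoter is methylated on the maternal copy. It had 1 untreated peak, 42 bp downstream of a start at a score percentile of 28.9, and the nearest DOP-treated centre was 82242 bp from that peak. At Snrpn, which encodes a protein of the splicing machinery and spans the imprinting centre of the Prader-Willi region, the untreated list had 1 peak 433 bp inside the transcript of the downstream start, at 21.6. The nearest DOP-treated centre was 664016 bp from it. Between the percentiles 20 and 30, 127 of the 3339 untreated peaks were isolated (3.80%), a band that holds both of these.

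The reverse was found at Mest, a gene of the alpha/beta hydrolase family expressed from the paternal copy. A DOP-treated peak lay 244 bp downstream of a start at a score percentile of 11.9, and the nearest untreated centre was 44671 bp away. Low-ranking peaks were often isolated, as 702 of the 3457 DOP-treated peaks between the percentiles 10 and 20 had no untreated centre within 2 kb (20.3%). Copg2, a coat protein gene that is a neighbour of Mest, had its strong peak in both lists, at 86.9 in DOP-treated and 67.5 in untreated cells, with centres 98 bp apart. The untreated list held an additional peak there at 47.1. The difference of 19.4 points at Copg2 was just under the limit of 20 points used above.

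In the Igf2-H19 cluster, Igf2 encodes a fetal growth factor and H19 a noncoding transcript of the maternal copy. No peak of either list lay near Igf2. The untreated list had 1 peak 2222 bp upstream of the H19 start, on the side where the imprinting control region lies, with a score of 23 and a score percentile of 0.351, among the lowest of its list, whose minimum is 21. The nearest DOP-treated centre was 46957 bp from it. Isolation was common at this rank, at 1665 of 3315 untreated peaks between the percentiles 0 and 10 (50.2%).

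At the Igf2r-Airn locus both lists marked both promoters. Igf2r, the receptor that clears IGF2, is expressed from the maternal copy, and the noncoding Airn transcript silences it in cis on the paternal copy. The Igf2r promoter had its higher peak at a score percentile of 79.1 in DOP-treated and 70.5 in untreated cells, with centres 59 bp apart, and the untreated list held a weaker peak beside it at 33.1. Airn had 3 peaks in each list, between 301 and 1209 bp downstream of its start in DOP-treated and between 269 and 1114 bp in untreated cells. Their percentiles were 63.3, 43.2 and 25.6 in the DOP-treated list and 61.4, 43.1 and 34.1 in the untreated list, so that the order of strength was the same.

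In the Kcnq1 domain, which the paternal noncoding transcript Kcnq1ot1 silences, 2 of the 6 annotated genes had peaks. Cd81, a tetraspanin of the cell surface, reached a score percentile of 94.3 in DOP-treated and 90.2 in untreated cells. A weaker peak downstream was placed 202 bp apart in the lists and so counted as 1 peak in each list only, at 62.3 and 55.4. The untreated peak at 90.2 and both weaker peaks lay closest to a start of the lincRNA R74862 (258, 7 and 65 bp away). They may therefore belong to either gene. Tssc4 had 3 shared peaks in each list, the highest at 78.2 and 82.0. The cell cycle inhibitor Cdkn1c, the growth regulator Phlda2, the transporter Slc22a18 and the placental transcription factor Ascl2 had no peak, and their nearest DOP-treated centres were 87214, 45723, 73163 and 47775 bp away. The imprinting of Cd81, Tssc4 and Ascl2 is known mainly from the placenta.

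The 300-base promoter of Kcnq1ot1 in RefSeq (GRCm38.p6) matched NCBIM37 exactly at 1 place (chr7:150482403-150482702, minus strand), in an intron of Kcnq1, with the start at base 150482452. Both lists had a peak just inside the transcript, 993 bp downstream at a score percentile of 61.7 in DOP-treated and 988 bp downstream at 61.3 in untreated cells. The DOP-treated list had an additional peak 226 bp downstream at 33.4, which lay 762 bp from the nearest untreated centre. This gene does not enter the counts over the 33 annotated genes.

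In the Prader-Willi and Angelman region, Ube3a, a ubiquitin ligase that is expressed from the maternal copy in neurons, had strong peaks in both lists. The highest reached a score percentile of 91.4 in DOP-treated and 96.0 in untreated cells, and the next 91.0 and 87.7. The DOP-treated list held 2 further peaks, at -383 bp (upstream of the start) with 64.3 and at 1471 bp downstream with 20.8, which lay 754 and 703 bp from an untreated centre. Among the paternally expressed genes, Mkrn3, a ring finger protein, had 2 shared peaks in each list, the higher at 28.0 and 22.7. Peg12, a FRAT family gene, had 2 in each list, the higher at 18.6 and 20.4. Ndn and Magel2, both of the MAGE family, had none.

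Peg10, a gene derived from a retrotransposon, and Sgce, the sarcoglycan of myoclonus dystonia, are transcribed in opposite directions from neighbouring starts and shared all their peaks. The DOP-treated list had 1 peak at a score percentile of 62.7, and the untreated list had 2, at 38.9 and 22.2, whose centres lay 95 and 80 bp to either side of it. A region called as 1 event in one list and as 2 in the other divides its signal differently, and the part of this in the difference of 23.8 points was not tested.

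Grb10, an adaptor of the insulin receptor with a maternal promoter in most tissues and a paternal one in neurons, had 4 peaks in each list. All of them lay around the 2 upstream promoters. The DOP-treated peaks ranged from a score percentile of 32.5 to 82.0 and the untreated ones from 50.4 to 84.6. None lay within 1 kb of the other 6 annotated promoters of the gene, so that the lists placed H3K9ac at the same promoters.

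Nnat, a proteolipid gene of the developing brain, had 3 DOP-treated and 2 untreated peaks in its window, but none at its own starts. The nearest centre was 5188 bp from a start in the DOP-treated and 5172 bp in the untreated list. The strong shared peak, at 94.3 and 94.6, lay at the start of Blcap, whose intron contains Nnat. The isolated DOP-treated peak lay upstream of Nnat, at -7859 bp from its start, with a score percentile of 8.0, in a band of ranks where 2019 of 3399 DOP-treated peaks were isolated (59.4%).

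Impact, a regulator of translation expressed from the paternal copy, had 2 shared peaks inside its transcript in each list. The one 757 bp (DOP-treated) and 702 bp (untreated) from the start was at 49.6 and 52.3. The one 1379 and 1437 bp from the start was at 52.3 and 58.8. An additional DOP-treated peak at 16.1 lay 2238 bp from the start and 801 bp from an untreated centre. Neither list had a peak in the Peg3 cluster, where Peg3, Usp29 and Zim1 were at least 116770 bp from any peak. The Dlk1-Meg3 cluster was also without peaks near the growth regulator Dlk1 and the noncoding Meg3 and Rian. The DOP-treated peak closest to Dlk1 was the one named above, and the closest untreated peak was 384564 bp away.

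**Figure D3:**
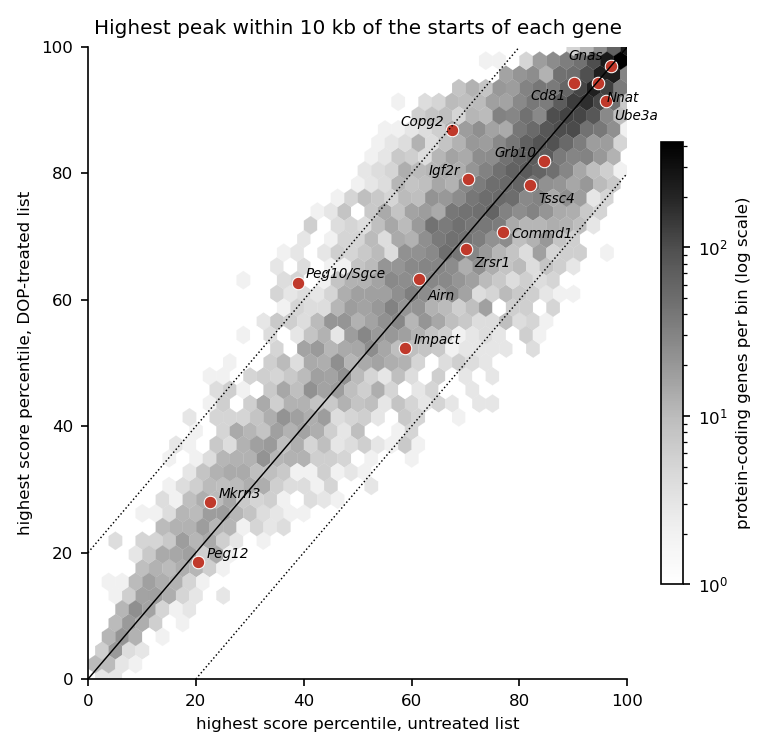
Highest score percentile among the peaks within 10 kb of each gene's starts in the untreated list (horizontal axis) and in the DOP-treated list (vertical axis) for the imprinted genes with peaks in both lists (red points, with names) over all protein-coding genes (grey bins, log scale of counts). The solid line marks equal percentiles and the dotted lines a difference of 20 points, and Peg10 and Sgce at 38.9 and 62.7 are the imprinted genes above the upper dotted line.

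Grouped by the parental copy that is known to be expressed, 6 of 14 maternally expressed genes had a DOP-treated peak and 7 of 14 an untreated peak. Of the paternally expressed genes, 9 of 17 had a DOP-treated and 10 of 17 an untreated peak. Gnas and Grb10, whose expressed copy depends on the promoter, are in neither group and had peaks in both lists. Over all protein-coding genes the shares were 57.7% and 56.9%, and over all genes 44.1% and 43.4%. These counts include genes whose peaks lay at the start of a neighbour, such as Nnat in both lists (Blcap) and Zrsr1 in the DOP-treated list (Commd1), and Peg10 and Sgce are counted on the same peaks. The maternal group held the genes whose imprinting is known mainly from placenta or brain (Cd81, Tssc4, Ascl2, Ube3a, Copg2 and Commd1), a class drawn up after the values were seen. Of these 6 genes, 5 had a peak in each list. The other 27 genes had 12 with a DOP-treated (44.4%) and 14 with an untreated peak (51.9%). No test was run on these groups, and with a class drawn up after the values the contrast is a description only.

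The sequence content of the peaks was described with no test. The median GC content of peaks of imprinted genes was 61% in the DOP-treated and 64% in the untreated list, against 59.5% for all peaks of each list. With a 25 kb window, or with the 5-prime-most start of each gene alone, the DOP-treated median was 59.5% and equalled that of all peaks. The observed over expected CpG ratio had a median of 0.743 and 0.740, against 0.638 and 0.652. The ZFP57 hexamer TGCCGC, searched on both strands, was held by 12 of 40 DOP-treated intervals (30%) and 12 of 41 untreated intervals (29.3%), against 12.4% and 12.6% of all intervals. The hexamer contains a CpG, and all intervals were not limited to those near starts and had lower CpG ratios. A comparison with intervals of like position or CpG content was not made.

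The hexamer was found in peaks of 10 of the 12 clusters with a peak, and was absent from the intervals at Peg10-Sgce and in the annotated Kcnq1 domain. The share expected for clusters of several intervals was not computed. In the Nnat cluster the hexamer lay only in the peak at the Blcap start, and in the Zrsr1-Commd1 cluster partly in the Commd1 promoter peak. The Igf2r-Airn locus had it in 6 of 9 intervals and Impact in 4 of 5, counted over both lists, in which shared intervals cover largely the same bases. Among the 300-base promoters (250 bases upstream to 50 downstream of the start), 7 of 33 imprinted genes held it (21.2%), against 13.6% of 22367 protein-coding genes. Among genes with a peak in either list, 5 of 20 imprinted genes held it (25%), against 18.8% of protein-coding genes. Peg10 and Sgce both held it and have neighbouring starts, so the same match may count for both. A match describes these letters alone, and neither methylation nor ZFP57 binding was measured.

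**Figure D4:**
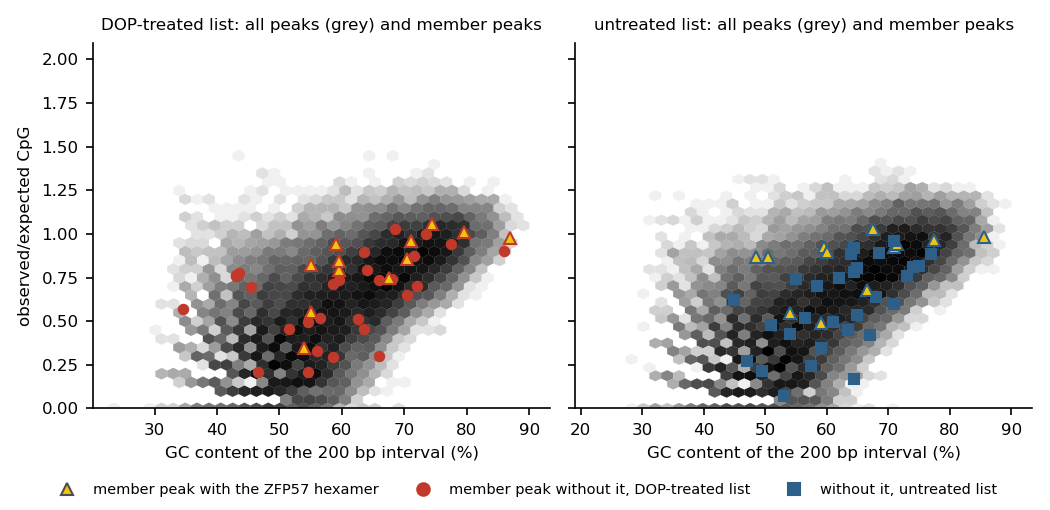
GC content of each 200 bp interval in percent (horizontal axis) against the ratio of observed to expected CpG (vertical axis) for all peaks (grey bins, log scale of counts) and the peaks of imprinted genes (coloured symbols), with the DOP-treated list on the left and the untreated list on the right. Yellow triangles mark the 12 intervals in each panel that hold the ZFP57 hexamer.

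Of 20 genes for factors that set, keep or erase imprints, 17 had a DOP-treated (85%) and 16 an untreated peak (80%), where all protein-coding genes gave 57.7% and 56.9%. The insulator gene Ctcf reached a score percentile of 99.6 in DOP-treated and 98.6 in untreated cells, and Trim28 reached 95.0 and 93.6. Zfp57 was lower, at 29.2 and 41.3. Setdb1, a methyltransferase of H3K9 that acts with TRIM28, was at 79.6 and 76.4. The genes Dnmt3l, Ctcfl and Dppa3 had no peak in either list, and Tet1, a methylcytosine dioxygenase, had 1 weak DOP-treated peak at 13.3. The related Tet2 reached 83.7 in DOP-treated and 84.2 in untreated cells, and Tet3 reached 79.0 and 78.0. Kdm1b was at 83.5 and 74.6.

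A second list of 31 imprinted genes outside the 34, of which 29 were matched in the annotation, gave 10 genes with a DOP-treated (34.5%) and 12 with an untreated peak (41.4%). The shares were 44.1% and 43.4% over all genes, and 57.7% and 56.9% over protein-coding genes. The second list was not split by gene type. Of these genes, 9 had peaks in both lists. Among them, Blcap was counted on the strong peak, at 94.3 and 94.6, that also counted for Nnat. H13 reached 95.1 and 94.8, and Nap1l4, at the edge of the Kcnq1 domain, 87.4 and 85.2. Rasgrf1 had DOP-treated peaks alone, at 1.45. Sfmbt2, Ppp1r9a and Ddc had untreated peaks alone, the highest at 27.3, 11.6 and 6.02.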

How the data were processed

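H3K9ac ChIP-seq data of Q111 cells (2 DOP-treated and 2 untreated samples) were analysed as 2 deposited peak lists, 1 per condition. Per the study's methods, the authors used Bowtie 2 for the alignment of single-end reads to mm9 and GPS for the peaks. The submitters' processing notes name BWA 0.7.10, and the file headers name the related caller GEM. The deposited lists hold more peaks for each condition than the study's methods report, so they are not the same peak sets. How samples and the IgG control entered the call is not given in the sources used here. The score is the value the authors deposited for each peak, without a definition. Depth per sample is unknown, so intervals cover the counting of genes or peaks only.

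Members and lists were chosen with earlier results of these data known. All 34 members were accounted for, and the peaks named were the highest of each cluster and those in 1 list only. Starts, exons and untranslated regions came from GENCODE vM1 (NCBIM37), any gene type. Intervals overlapping by at least 1 bp were shared. Sequences, GC content and CpG ratios were read from NCBIM37. Alternative windows, start sites, score limits and sharing rules were computed. The functions recovered 7 of 7 planted answers on 2000 simulated peaks. Python 3.11.15, numpy 2.4.6, scipy 1.17.1, pysam 0.24.0 and matplotlib 3.10.9 were used. IgG data, RNA-seq and read densities were not analysed here.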

Additional observations from a re-analysis of the deposited data

How the results depend on the processing

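Of 78 results recomputed under 9 alternatives, 65 stayed within 1.5 times the reported count or, for a median, within its 95% interval from the ranks of the peaks, and 13 did not. The 25 kb window left the numbers of imprinted genes with a peak at 17 in the DOP-treated and 19 in the untreated list. With peaks in the top 50% of each list by score, 14 genes had a DOP-treated and 12 an untreated peak (17 and 19 with all peaks), 6 DOP-treated and 4 untreated peaks were found in 1 list only (10 each with all peaks), and 5 genes had more and 4 fewer DOP-treated peaks (5 and 9 with all peaks). The order of the lists in these gene counts thus turned. For the genes with a peak, this turn came from the 1 DOP-treated peak that Peg10 and Sgce share. Some of the peaks in 1 list only under this score limit overlapped a lower-ranking peak of the other list that the limit removed. Examples are the DOP-treated peak at Sgce (62.7, against 38.9) and an untreated peak at Impact (52.3, against 49.6). With sharing defined as centres within 2 kb, 3 DOP-only and 4 untreated-only peaks were left, and with centres within 500 bp 5 untreated-only peaks were left. Genes with more DOP-treated peaks numbered 3 with a 2 kb window and 3 with the 5-prime-most start of each gene alone, against 5. No paired analysis was possible because each condition has 1 peak list, and for the same reason no replicate could be left out. A peak missing from a list may have fallen under its unknown threshold.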
